A study of Mus musculus with 11 samples.

Results

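Plxnd1, Mtmr9, Dlg5, Tln2 and Zp1 are 5 protein-coding genes chosen by their measured RNA counts, which differed between 2 mutant Bcl11b genotypes, D/N440K and +/N440K, in mouse thymocytes. They are 5 of the 10910 genes tested in the Bcl11b table, and 5 of 55870 gene identifiers in the series. The RNA came from sorted thymocytes negative for CD24 and for TCRβ, in which most maturing αβ T cells are not kept. One table of the study held 6 libraries of postnatal day 0, a pair for each of 3 genotypes of Bcl11b, which were +/+, +/N440K and D/N440K. N440K is a changed residue of the Bcl11b protein, and both mutant genotypes carry it. The other allele is wild type in +/N440K and the allele written D, which the labels do not define, in D/N440K. The Tcf7 table held 5 libraries of postnatal day 7. Of these, 2 were Tcf7 +/+, and the label of the other 3, Tcf7 F/F:Vav1-Cre, stands for loxP-flanked Tcf7 alleles with Cre under the blood-lineage promoter of Vav1. The labels do not say whether a library came from 1 animal or from a pool.

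Bcl11b is a zinc finger transcription factor needed for commitment to the T lineage, and it represses genes of innate lymphoid and natural killer cells. Tcf7 encodes TCF-1, a factor induced by Notch that starts the T-cell programme. The 5 genes do unrelated work. Plxnd1 encodes plexin D1, a surface receptor for semaphorins that guides migrating cells, thymocytes moving towards the medulla among them. Zp1 encodes a glycoprotein that cross-links the filaments of the egg coat. Tln2 encodes talin 2, which ties integrins to actin. Mtmr9 encodes a myotubularin without phosphatase activity, which binds active family members that remove a phosphate from the membrane lipid PI3P. Dlg5 encodes a scaffold of the MAGUK family that acts in cell polarity and adhesion.

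The library checks were as follows. Total counts ran from 999381 to 1246272 in the Bcl11b table and from 1273997 to 1842717 in the Tcf7 table. Bcl11b, the targeted gene, stood at 505.6 and 641.4 CPM (counts scaled to library size after TMM normalisation) in Bcl11b +/+, at 185.2 and 225 in +/N440K and at 151.6 and 203.6 in D/N440K. Tcf7 stood at 552.2 and 593.5 CPM in Tcf7 +/+ and was not lower, at 658.3 to 846.7, under the label Tcf7 F/F:Vav1-Cre. These counts cover all exons, so they do not check the deletion, and every direction given for Tcf7 F/F:Vav1-Cre rests on that label. The blood-cell marker Ptprc was at 879 CPM or more in all 11 libraries, and Cd24a at 12.45 CPM or less. Trbc1 and Trbc2, the TCRβ constant regions, were still transcribed, at 46.9 to 210.7 and 100.7 to 204.6 CPM. All 6 Bcl11b libraries held both Xist reads (351 to 602) and Y-linked reads (177 to 239). In the Tcf7 table, replicates 1 and 3 of Tcf7 F/F:Vav1-Cre held 2091 and 2623 Xist reads and 0 and 2 Y-linked reads, while the other 3 libraries held 1 to 11 Xist and 555 to 715 Y-linked reads. Replicate pairs differed by more than counting noise, with a chi-square per degree of freedom of 1.14 to 1.42 in the Bcl11b table, 1.7 to 2.16 in Tcf7 F/F:Vav1-Cre and 4.94 in Tcf7 +/+. Nothing says that replicates were separate animals, so p-values measure the spread between these libraries, which may be technical.

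Cell type markers moved with genotype. The summed level of 8 markers of γδ cells that make IL-17 was 1822 to 2126 CPM in Bcl11b +/+, 705.7 to 755.7 in +/N440K and 423.4 to 491.6 in D/N440K. It was 1694 to 1968 CPM in Tcf7 +/+ and 2281 to 2454 under Tcf7 F/F:Vav1-Cre. The sum of 8 NK and ILC1 markers was 613.8 to 721.5, 1362 to 1448 and 1603 to 1673 CPM over the 3 Bcl11b genotypes, and that of 8 double-positive thymocyte markers 638.4 to 640.9, 57.94 to 59.22 and 44.53 to 68.19. The NK and ILC1 sum was 771.6 to 961.3 CPM in Tcf7 +/+ and 654.8 to 780.4 under Tcf7 F/F:Vav1-Cre, where 5 of the 8 fell and 1 rose. The sum of 6 erythroid markers was 28.23 to 62.4 CPM in +/+, 11.84 to 26.93 in +/N440K and 92.49 to 123.2 in D/N440K. The sum of 8 myeloid markers stepped up, from 103.3 to 159.4 CPM in +/+ to 225.2 to 252.7 and 305.3 to 313.5, and that of 6 B-cell markers stepped down, from 27.62 to 34.04 CPM to 13.87 to 21.71 and 9.16 to 11.99. Only 1 of those 6, Cd79b, passed the filter in the Bcl11b table. Its means of 24.44, 15 and 8.701 CPM made up most of the sum, and it fell past the test against +/+ in D/N440K alone. From Tcf7 +/+ to Tcf7 F/F:Vav1-Cre, myeloid markers went from 465 to 807.5 CPM up to 1109 to 1249, and B-cell markers from 150.5 to 158.3 down to 43.51 to 56.61. The double-positive list did not move as one there. Its sum went from 943 to 972 down to 446.9 to 450.4 CPM, and 6 of 7 tested markers fell (Rag1 from a mean of 363.2 to 0.8317), but Cd4 rose from 201.5 to 351 (0.80). The sum of 8 stroma and epithelium markers was 36.73 CPM or less in all 11 libraries. In such bulk samples, fewer cells of a type and less RNA per cell cannot be told apart. The part of these markers in the results that follow was not tested.

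The name "graded" fits some of the 5 genes. Plxnd1 and Zp1 stepped down from +/+ through +/N440K to D/N440K. Tln2 stood at the same level in +/+ and +/N440K and higher in D/N440K. Mtmr9 was lowest and Dlg5 highest in +/N440K, and D/N440K was close to +/+ in both. The rule that chose the genes used the difference of D/N440K and +/N440K, so that difference is given here without a test. In that comparison 58 of the 10910 tested genes (0.532%) were called at edgeR adjusted p under 0.05. That number was 4 with DESeq2 and 25 to 91 when 1 library was left out, the fewest without D/N440K replicate 1 and the most without +/+ replicate 1 (35 without D/N440K replicate 2 and 90 without +/+ replicate 2). Of the 58 genes, 20 stepped down and 17 stepped up across the 3 genotypes, 14 were lowest in +/N440K and 7 highest. Stepwise order was thus seen in 63.8% of the 58 and in 41.9% of all tested genes, by group means alone.

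**Figure D1:**
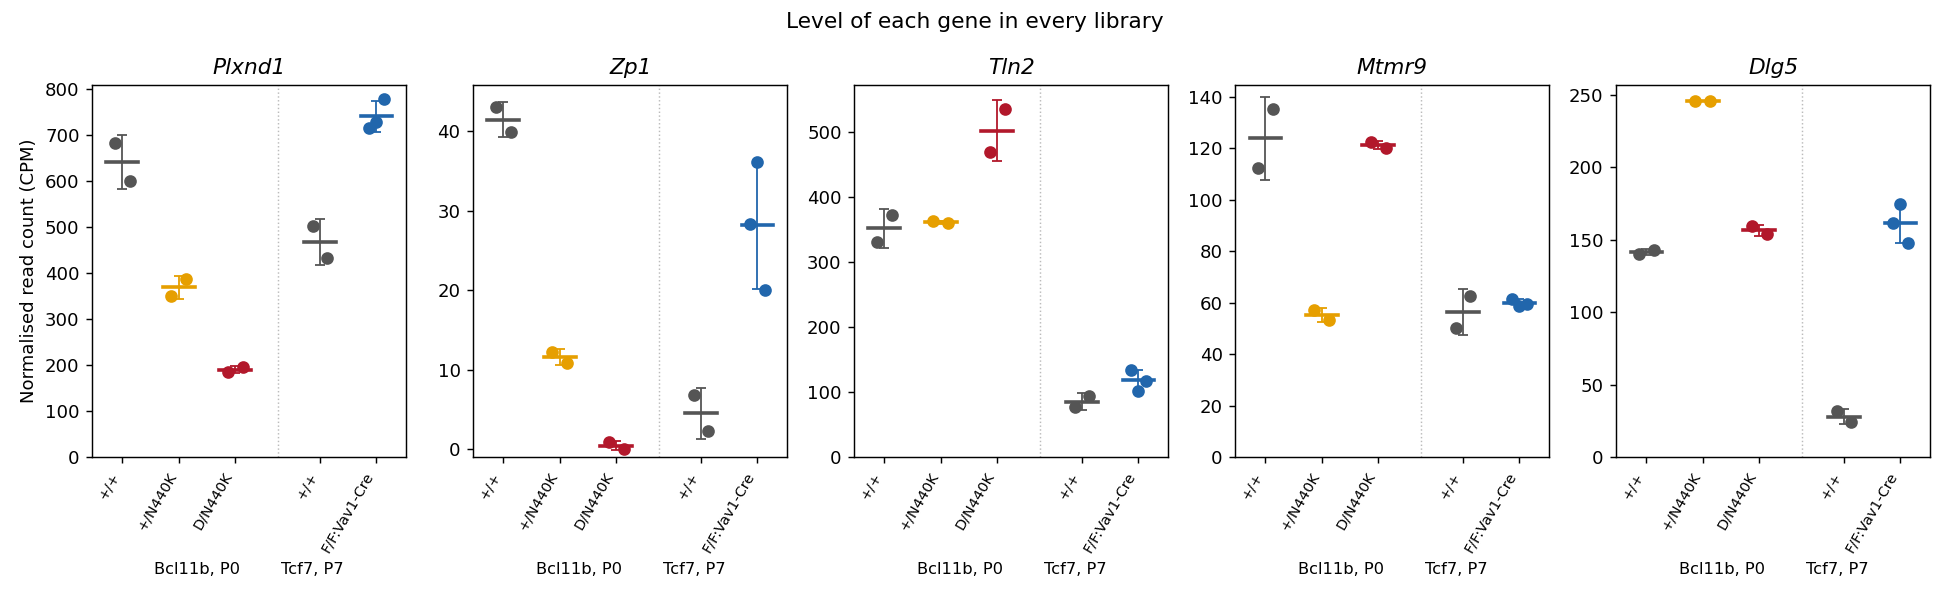
Normalised read counts (CPM, linear axes, a separate scale for each gene) of the 5 genes by group, with each point 1 library, bars the group means and whiskers ± SD (n = 3 for Tcf7 F/F:Vav1-Cre and n = 2 elsewhere). Plxnd1 and Zp1 step down over the 3 Bcl11b genotypes, Tln2 is high in D/N440K, and Mtmr9 and Dlg5 stand apart in +/N440K.

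The comparison of +/+ with the mean of both mutant genotypes does not use the difference that chose the genes, although the same libraries supply its spread. Its p-values are therefore not independent of the choice. All 5 genes passed the filter on low counts in both tables, Zp1 in the Tcf7 table only through the Tcf7 F/F:Vav1-Cre libraries, so nothing is read from the number of the 5 that were called. In this test the mean of the N440K genotypes was lower than +/+ for 3 of the 5 and higher for 2 (edgeR adjusted p under 0.05). For Mtmr9, Dlg5 and Tln2 that mean joins a genotype apart from +/+ with another near it. Over all tested genes 14.4% were called, 7.65% lower and 6.74% higher. Among the Tcf7 libraries, which the rule did not use, 3 of the 5 were higher in Tcf7 F/F:Vav1-Cre and 2 were not past the test. Of all 12366 genes tested there 23.2% were called, and 12% were called higher. Fold changes are log2 values from edgeR with their SE.

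Promoter sequences are shown for the 2 of the 5 genes that the RefSeq promoter table (GRCm38.p6) holds, Plxnd1, which stepped down, and Dlg5, which was highest in +/N440K. Each runs 5′ to 3′ on the gene's strand over the 250 bases before the annotated start, at chr6:115995006-115995255 and chr14:24245921-24246170, both on the minus strand. Capitals mark matches, on either strand, to the letters TGACCA (bound by the zinc fingers of Bcl11a), TGTGGT (Runx), CTTTGA (TCF and LEF), GATAAG (zinc finger factors of the Gata family), CAGGTG (an E box) and GGAAGT (ETS), none of which overlapped.
Plxnd1: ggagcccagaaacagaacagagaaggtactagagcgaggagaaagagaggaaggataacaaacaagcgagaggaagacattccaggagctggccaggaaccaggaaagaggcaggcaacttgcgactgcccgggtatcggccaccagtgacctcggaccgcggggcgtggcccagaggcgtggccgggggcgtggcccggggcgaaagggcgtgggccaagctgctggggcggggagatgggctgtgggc
Dlg5: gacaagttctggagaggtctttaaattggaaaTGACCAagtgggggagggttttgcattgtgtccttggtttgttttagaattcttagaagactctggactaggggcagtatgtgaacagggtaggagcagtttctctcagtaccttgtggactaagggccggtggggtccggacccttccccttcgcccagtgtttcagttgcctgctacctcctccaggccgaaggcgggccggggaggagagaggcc
The Dlg5 window holds TGACCA once, 218 to 213 bases before the start, and none of the other motifs. The Plxnd1 window holds none of the 6. Of 32851 promoter windows of this length, 11.4% hold TGACCA, 14.0% TGTGGT, 13.8% CTTTGA, 6.5% GATAAG, 17.2% CAGGTG and 19.7% GGAAGT on either strand. A match is a description of the letters, and a window without one says nothing about a factor.

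Plxnd1 (ENSMUSG00000030123, GRCm38 chromosome 6, 115954811 to 115995005, minus strand, overlapping no other annotated gene) had the highest level per length of the 5 in every group but D/N440K. It stood at 682.4 and 600.3 CPM in Bcl11b +/+, at 350.9 and 386.9 in +/N440K and at 184.1 and 195.4 in D/N440K. No library of one genotype reached the range of another. The log2 fold change from +/+ was -0.80 ± 0.0837 in +/N440K and -1.75 ± 0.0939 in D/N440K, and D/N440K lay 0.96 below +/N440K (SE 0.101). The mean of both mutant genotypes gave a log2 fold change of -1.28 ± 0.0744 (adjusted p = 1.33e-16, edgeR). At postnatal day 7 the direction was the other way. Tcf7 +/+ held Plxnd1 at 502.6 and 431.8 CPM, and Tcf7 F/F:Vav1-Cre at 715.7, 727.7 and 779.4 CPM, so that all 3 libraries stood above both controls. This rise was 0.67 ± 0.117 (edgeR adjusted p = 0.0004455). The fold was 0.65 in the 1 library of Tcf7 F/F:Vav1-Cre with Y-linked reads against the +/+ pair, where the call was lost (edgeR adjusted p = 0.3727).

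Endothelial cells are a well-known site of plexin D1, so their markers were read beside it. Of 8 such markers, Emcn was at 0 in all 11 libraries, and Cldn5, Tek and Tie1 had at most 3 counts and Esam at most 11 in any group. Kdr had 2, 0 and 6 counts in the 3 Bcl11b genotypes but was present in the Tcf7 table, at 26.49 to 46.21 CPM in +/+ and 32.21 to 42.28 in Tcf7 F/F:Vav1-Cre. Cdh5 had 29.67 and 30.72 CPM in Bcl11b +/+, 8.883 to 10.61 in +/N440K and 9.421 to 13.23 in D/N440K. Its level was 16.35 to 32.68 CPM in Tcf7 +/+ and 17.79 to 28.93 in Tcf7 F/F:Vav1-Cre. The summed level of the 8 was 90.49 to 94.12, 54.29 to 69.37 and 60.81 to 65.14 CPM in these groups. It was 223.8 to 278.4 in Tcf7 +/+ and 368.4 to 419.7 in Tcf7 F/F:Vav1-Cre. Most of that was Pecam1, which blood cells also express, at 178.7 to 199.5 and 306.2 to 358.2 CPM. Any part of endothelial cells in the levels of Plxnd1 was not tested.

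Genes of the plexin, neuropilin and semaphorin list moved in both directions. Of 17 tested genes of that list, 2 rose and 4 fell in +/N440K (list median log2 fold change -0.02), where 10.1% of all tested genes were called. In D/N440K 5 rose and 4 fell (median -0.07), against 12.4% of all tested genes. DESeq2 called 1 and 3 of the 17 in these comparisons, and in +/N440K edgeR called 2 without +/+ replicate 1 and 3 without +/N440K replicate 2. The median over all tested genes was 0.00 in both comparisons. Between D/N440K and +/N440K, 0 of the 17 were called by edgeR, DESeq2 or limma-voom, and 6 had an unadjusted edgeR p under 0.05. Some genes of the list stepped by group means, in either direction. On that measure, 20.9% of all tested genes stepped down and 21% stepped up. Among those of the list, Plxnc1 (97.19 to 97.97, 115.1 to 125.4 and 149 to 151.7 CPM), Sema4c and Sema6d stepped up. Plxna1 and Sema4b stepped down, as Plxnd1 did. Plxna1, a plexin named here after its values were seen, ran at 86.96 to 95.48, 62.84 to 80.94 and 53.94 to 53.96 CPM and fell in D/N440K (-0.76). Sema4b ran at 267 to 279.8, 237.5 to 254.7 and 205.5 to 218.8 CPM and also fell in D/N440K (-0.37). Plxnb1, a receptor of Sema4d, fell in both genotypes, with means of 22.88, 9.319 and 7.416 CPM, but its +/N440K and D/N440K libraries overlapped. Among the other receptors, Nrp1, a co-receptor of class 3 semaphorins, fell from 30.42 ± 3.95 to 10.75 ± 7.13 CPM in +/N440K (-1.56) and to 14.24 ± 2.87 in D/N440K (-1.08). Plxna3 fell in +/N440K (57.38 ± 1.31 to 32.07 ± 14.7 CPM, -0.80), and Plxnc1, the receptor of Sema7a, rose in D/N440K (97.58 ± 0.552 to 150.3 ± 1.86 CPM, 0.62). Among ligands, Sema4a rose in both genotypes, from 431.4 ± 11.1 to 620.6 ± 21.3 CPM in +/N440K (0.52) and to 639.9 ± 22 in D/N440K (0.57). Sema4c rose from 36.9 ± 3 to 58.92 ± 6.01 and 76.46 ± 4.5 CPM (0.66 and 1.05), and Sema6d rose in D/N440K (0.86). In Tcf7 F/F:Vav1-Cre 4 of 19 tested genes rose and 4 fell (median 0.10, against -0.01 over all tested genes), and 5 were called with Y-linked reads as a term. Over all tested genes 23.2% were called there in the main fit. Sema4b rose there from 303.2 ± 51.7 to 541.9 ± 47.1 CPM (0.84), while Plxna3 (44.24 ± 8.38 to 10.7 ± 2.85 CPM, -2.03), Sema7a (-1.49) and Plxnb1 (-2.38) fell.

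Zp1 (ENSMUSG00000024734, chromosome 19, 10914287 to 10920632, minus strand) was the lowest in counts of the 5 and showed the widest steps. It stood at 42.97 and 39.85 CPM in Bcl11b +/+, at 12.24 and 10.86 in +/N440K, and at 0.8564 and 0 in D/N440K. In reads, the groups held 90, 26 and 1. The ratio of +/+ to +/N440K was 3.55 (95% exact interval 2.27 to 5.73), and that of +/+ to D/N440K 88.7 (15.5 to 3540). These intervals cover counting error only, since PCR reads without molecular identifiers are not independent molecules. For Zp1 the mean of both mutant genotypes was lower than +/+ by the edgeR test (log2 fold change -3.99 ± 0.398, adjusted p = 1.396e-10). The size of that value depends on the prior count, because D/N440K held a single read. It was -5.15 without D/N440K replicate 1.

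At postnatal day 7 Zp1 went up. The Tcf7 +/+ libraries held 6.762 and 2.255 CPM, and those of Tcf7 F/F:Vav1-Cre 28.3, 36.16 and 20.03, or 16 reads against 135. The log2 fold change was 2.62 ± 0.415 (edgeR adjusted p = 0.0001636), and the ratio of summed counts was 6.23 (95% exact interval 3.7 to 11.2). All 3 libraries stood above both controls. Without Tcf7 F/F:Vav1-Cre the gene would not have passed the filter, and with no filter the value was 2.61 (edgeR adjusted p = 0.0141). It moved to 2.05 without Tcf7 +/+ replicate 2 and to 3.60 without Tcf7 +/+ replicate 1, and the call held in each (edgeR adjusted p up to 0.001646). In the libraries with Y-linked reads alone the log2 fold change was 3.00, with the call lost (edgeR adjusted p = 0.2785).

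The other genes of the egg coat were not seen beside Zp1. Zp2 and Zp3, its partners in the coat, were at 0 counts in all 11 libraries, and the oocyte factor Gdf9 had at most 2 counts in any group. The summed level of 7 oocyte markers was at most 1.13 CPM in any library. Over all tested genes 10.1% were called in +/N440K. Of 15 other genes with a zona pellucida domain or a role in the coat, 3 were tested in each table. In +/N440K 2 of them fell, and 1 with DESeq2, limma-voom or no filter, and without +/+ replicate 1 or either +/N440K library. Eng, which encodes endoglin, a TGF-β co-receptor, fell from 143.2 ± 2.92 CPM in Bcl11b +/+ to 14.58 ± 2.47 in +/N440K (-3.27) and 24.69 ± 8.27 in D/N440K (-2.56), and so was not lower in D/N440K than in +/N440K. Tgfbr3, which encodes betaglycan, fell in +/N440K (83.05 ± 20 to 55.88 ± 0.543 CPM, -0.55) and in Tcf7 F/F:Vav1-Cre (56.08 ± 5.19 to 22.54 ± 2.72 CPM, -1.30).

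The genes beside Zp1 moved in part with it. Of 11 annotated neighbours within 100 kb, 7 were tested. In +/N440K 2 fell and 5 were not past the test, where 10.1% of all tested genes were called. In D/N440K 4 fell and 3 were not past it, where 12.4% of all tested genes were called. Of the 2 that fell in +/N440K, 1 was not past the test in D/N440K. In Tcf7 F/F:Vav1-Cre 4 rose, 1 fell and 2 were not past it, where 23.2% of all tested genes were called. Ptgdr2, 16.53 kb upstream, encodes the prostaglandin D2 receptor CRTH2 of ILC2 and Th2 cells. It stood at 103.3 and 95.48 CPM in Bcl11b +/+, at 68.55 and 86.86 in +/N440K and at 30.83 and 36.64 in D/N440K. It fell in D/N440K (-1.56, edgeR adjusted p = 4.156e-08) and was not past the test in +/N440K (-0.36, edgeR adjusted p = 0.1562). With the Tcf7 genotypes it rose from 19.16 and 10.15 CPM to 110, 148.6 and 109.6 (3.06, edgeR adjusted p = 1.524e-07). Ccdc86, 20.85 kb upstream, fell in D/N440K (-0.61) and rose in Tcf7 F/F:Vav1-Cre (1.50), and so did Slc15a3, a peptide and histidine transporter 54.92 kb downstream (-0.78 and 1.64). Prpf19, the closest at 4.73 kb, encodes a spliceosome factor and was not past the test in any of the 3 comparisons (log2 fold changes 0.07, 0.07 and -0.18).

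Cd6, 84.23 kb downstream of Zp1, and Cd5, 175.3 kb away, encode related receptors that dampen TCR signals. Across all 10853 genes compared, Plcg1, Cd5 and Cd6 were the 3 whose centred log2 levels over the 6 Bcl11b libraries lay closest to those of Zp1, with a root mean square difference of 0.45, 0.46 and 0.54. Cd5 stood at 67.52 and 68.08 CPM in +/+, at 14.69 and 15.79 in +/N440K and at 3.426 and 4.071 in D/N440K. Cd6 stood at 93.09 and 84.68, at 20.4 and 14.81, and at 6.851 and 5.089 CPM. Both stepped down as Zp1 did. They parted from it at postnatal day 7, since Cd5 (-2.31) and Cd6 (-4.00) fell in Tcf7 F/F:Vav1-Cre, where Zp1 rose. Plcg1, the phospholipase C of TCR signalling, also fell there (-0.99).

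**Figure D2:**
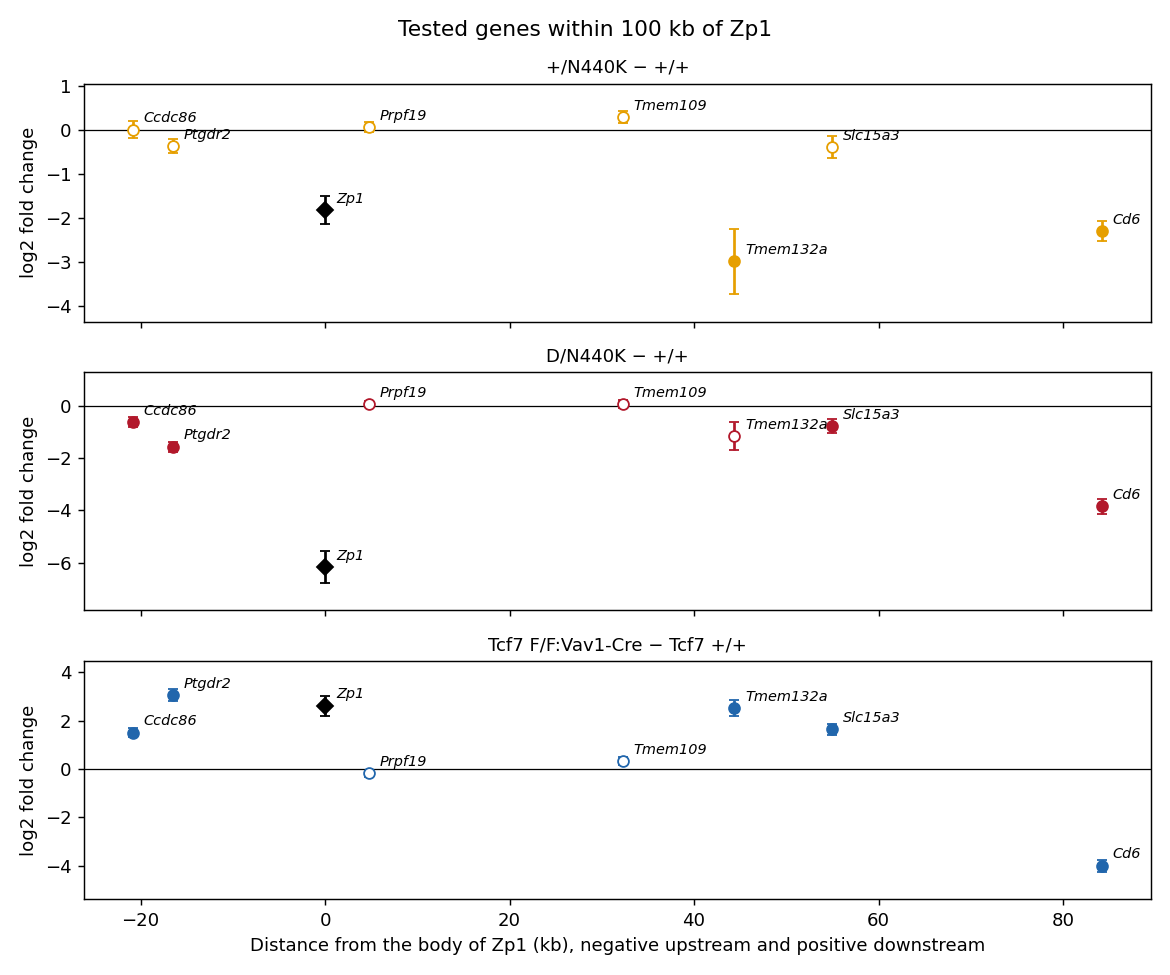
Log2 fold change (edgeR, ± SE) of Zp1 (diamond) and the 7 tested genes within 100 kb, by distance from Zp1 in kb, for the 3 comparisons, with filled points past edgeR adjusted p under 0.05. In Tcf7 F/F:Vav1-Cre, Zp1 and 4 neighbours rise and Cd6 falls, and the value of Zp1 in D/N440K rests on 1 read.

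Tln2 (ENSMUSG00000052698, chromosome 9, 67217087 to 67559703, minus strand) was raised in D/N440K and not in +/N440K. It stood at 330.4 and 371.9 CPM in Bcl11b +/+, at 362.3 and 359.3 in +/N440K and at 468.5 and 534.3 in D/N440K. The +/N440K libraries fell inside the range of +/+, and both D/N440K libraries lay above all others. The log2 fold change from +/+ was 0.03 ± 0.0914 in +/N440K (95% interval -0.15 to 0.21) and 0.50 ± 0.0873 in D/N440K. The rise from +/+ to the mean of both mutant genotypes was 0.27 ± 0.0778 (edgeR adjusted p = 0.01314). It was lost with DESeq2 (adjusted p = 0.2087), without +/+ replicate 1 (0.19, edgeR adjusted p = 0.2791) and without D/N440K replicate 2 (0.23, edgeR adjusted p = 0.07299). Under the Tcf7 genotypes Tln2 was at 76.07 and 94.13 CPM in the +/+ pair, against 134.2, 101.1 and 117.4. The groups did not overlap, but the difference was not past the test (0.46 ± 0.17, edgeR adjusted p = 0.06114). It passed without Tcf7 +/+ replicate 2 (0.62, edgeR adjusted p = 0.009). With Y-linked reads as a term it was 0.25 (edgeR adjusted p = 0.6466).

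Tln2 overlaps the microRNA Mir190a and the antisense gene Gm47047, which share 0 exon bases with it. No neighbour within 100 kb was tested. The closest patterns to Tln2 over the 6 libraries were those of Ckap2l and Aspm, which act at the mitotic spindle, and of the long non-coding RNA Gm26816 (root mean square difference 0.05, 0.07 and 0.07). In Tcf7 F/F:Vav1-Cre, Ckap2l (-0.71) and Aspm (-0.81) fell.

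The list of talin partners moved in both directions, and Tln1, the main talin of lymphocytes, stood at 1820 ± 70.1, 2049 ± 134 and 1989 ± 27.1 CPM over the 3 Bcl11b genotypes and was not past the test in either (0.17 and 0.13), nor in Tcf7 F/F:Vav1-Cre (0.24). Of 25 tested genes, 5 rose and 2 fell in +/N440K (median 0.08), and 7 rose and 5 fell in D/N440K (median 0.03). Over all tested genes 10.1% and 12.4% were called in these comparisons. The 3 tools called 0 of the 25 between D/N440K and +/N440K, where 7 had an unadjusted edgeR p under 0.05. Calls there numbered 3 without +/+ replicate 1, 2 without +/+ replicate 2 or +/N440K replicate 1, 1 without D/N440K replicate 1 and 2 with no filter. Among integrin chains, Itgb1 rose from 100 ± 11.2 CPM to 165.2 ± 21.4 in +/N440K (0.72) and to 203.5 ± 11.4 in D/N440K (1.02), and Itgb3 fell in D/N440K (263.9 ± 23.3 to 154.4 ± 45.7 CPM, -0.75). Among adaptors, Pxn, which encodes paxillin, rose from 284.4 ± 2.95 to 413.5 ± 37.8 (0.54) and 404.7 ± 13.9 CPM (0.51). The tensins, which bind integrin tails, split. Tns1 rose from 168.3 ± 0.772 to 245.8 ± 15.3 (0.54) and 301.5 ± 17 CPM (0.84) and Tns2 rose in both genotypes (1.65 and 1.70), while Tns4 fell from 78.12 ± 3.41 to 36.58 ± 14 (-1.06) and 36.81 ± 1.19 CPM (-1.09). In Tcf7 F/F:Vav1-Cre 8 of 27 rose and 5 fell (median 0.17), beside 23.2% called over all tested genes. The 13 calls became 20 without Tcf7 +/+ replicate 1 and 6 with Y-linked reads as a term. Itgb5 rose there from 50.72 ± 27.9 to 251.8 ± 10.4 CPM (2.31), Tns4 from 68.19 ± 13.5 to 169.3 ± 14 (1.31) and Tns3 from 142.9 ± 76.1 to 415.2 ± 45.8 (1.54). Rasgrp2, the exchange factor that activates Rap1, fell from 215.8 ± 37.4 to 116.5 ± 2.83 CPM (-0.89).

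Mtmr9 (ENSMUSG00000035078, chromosome 14, 63519651 to 63543982, minus strand, overlapping no other annotated gene) was low in +/N440K alone among the 3 Bcl11b genotypes. It stood at 112.5 and 135.3 CPM in Bcl11b +/+, at 57.12 and 53.3 in +/N440K and at 122.5 and 120.1 in D/N440K. The D/N440K libraries lay inside the range of +/+, and the +/N440K libraries below all others. The log2 fold change from +/+ was -1.17 ± 0.156 in +/N440K and -0.04 ± 0.134 in D/N440K (95% interval -0.30 to 0.22), and D/N440K stood above +/N440K by 1.13 ± 0.157. The mean of both genotypes lay 0.61 below +/+ (SE 0.124, edgeR adjusted p = 0.0003589), a value that joins a low group with one at the level of +/+. Leaving out +/+ replicate 2 ended that call (-0.46, adjusted p = 0.09018, edgeR). For the Tcf7 genotypes, +/+ held 50.15 and 62.56 CPM, and Tcf7 F/F:Vav1-Cre held 61.46, 58.76 and 59.53. The groups overlapped, and the difference was 0.09 ± 0.188 (95% interval -0.28 to 0.46, edgeR adjusted p = 0.7881).

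Of 17 other tested genes of the myotubularin and PI3P list, 1 fell in +/N440K (median -0.04), 2 fell in D/N440K (median -0.08) and 1 fell in Tcf7 F/F:Vav1-Cre (median -0.09), beside 10.1%, 12.4% and 23.2% called over all tested genes. DESeq2 called 0 of the 17 in each of the 3 comparisons. In D/N440K 1 was called without D/N440K replicate 2, and in +/N440K 2 without +/N440K replicate 1. Under Tcf7 F/F:Vav1-Cre edgeR called 6 without Tcf7 +/+ replicate 1 and 0 when any other 1 library was left out, with no filter or with a replicate block. Between the mutant genotypes edgeR, DESeq2 and limma-voom called 0, and 0 had an unadjusted edgeR p under 0.05. Pikfyve, the kinase that turns PI3P into PI(3,5)P2, fell from 103.2 ± 5.56 CPM to 62.1 ± 0.115 in +/N440K (-0.74) and 61.17 ± 18.9 in D/N440K (-0.73). Sbf2, another myotubularin without phosphatase activity, fell in D/N440K (26.39 ± 2.6 to 9.29 ± 0.184 CPM, -1.50). Mtmr2, an active phosphatase, fell in Tcf7 F/F:Vav1-Cre (80.59 ± 19.1 to 55.18 ± 2.2 CPM, -0.54). Mtmr6 and Mtmr7, active phosphatases that bind Mtmr9, were not past the test in +/N440K (-0.01 and -0.52), D/N440K (-0.12 and 0.09) or Tcf7 F/F:Vav1-Cre (0.14 and -0.21). Patterns most like that of Mtmr9 were those of Flrt1, which encodes an adhesion protein, the processed pseudogene Gm9625 and Ly6g5b (root mean square difference 0.11, 0.12 and 0.13).

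Dlg5 (ENSMUSG00000021782, chromosome 14, 24133953 to 24245920, minus strand) lies on the same chromosome as Mtmr9, 39.3 Mb away, and was high in +/N440K. It stood at 140.2 and 142.8 CPM in Bcl11b +/+, at 245.6 and 245.8 in +/N440K and at 159.3 and 153.7 in D/N440K. Both +/N440K libraries lay above all others, and the D/N440K pair lay a little above +/+ without overlap. The log2 fold change from +/+ was 0.79 ± 0.11 in +/N440K and 0.15 ± 0.12 in D/N440K (95% interval -0.09 to 0.38), and D/N440K lay 0.65 below +/N440K (SE 0.108). The mean of both genotypes was higher than +/+ by 0.47 ± 0.101 (edgeR adjusted p = 0.0006576), a value that joins a high group with another near +/+. Of its exon bases, 1.5% are shared with Gm49098, so a small part of its reads may belong there.

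Dlg5 was far lower in Tcf7 +/+ than in any other group. There it was at 31.55 and 24.24 CPM, against 161.7, 174.6 and 148 CPM for Tcf7 F/F:Vav1-Cre, a rise of 2.53 ± 0.186 (edgeR adjusted p = 3.272e-08). The lowest of the 3 libraries stood far above the higher control. The value was 2.35 to 2.73 when 1 library was left out and 2.64 with Y-linked reads as a term (edgeR adjusted p = 3.088e-06). It was 2.66 in the libraries with Y-linked reads alone, with the call lost (edgeR adjusted p = 0.2147).

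Over all tested genes 10.1% were called in +/N440K and 12.4% in D/N440K. Of 27 other tested genes of MAGUK scaffolds and cell polarity, 1 rose and 2 fell in +/N440K (median 0.06). In D/N440K 1 rose and 4 fell (median -0.15). DESeq2 called 1 and 2 of them in these comparisons, and edgeR 3 in D/N440K without D/N440K replicate 1. Between the mutant genotypes 0 were called by any of the 3 tools, and 5 had an unadjusted edgeR p under 0.05. Dlg4, the scaffold PSD-95, fell from 44.95 ± 5.7 CPM to 10.73 ± 0.176 in +/N440K (-2.07) and 12.93 ± 6.18 in D/N440K (-1.84). Dlg3, a related scaffold, fell in D/N440K (12.59 ± 3.33 to 1.794 ± 1.1 CPM, -2.71). Pard3, a polarity scaffold, fell in both (-1.11 and -1.40). In Tcf7 F/F:Vav1-Cre 2 of 31 rose and 8 fell (median -0.05), and 6 were called with no filter or with Y-linked reads as a term. Over all tested genes 23.2% were called there in the main fit. Magi1 rose from 1.973 ± 1.99 to 17.04 ± 9.48 CPM (3.03), and Patj fell from 35.79 ± 3.59 to 9.036 ± 1.58 (-1.99). Mpp2 had 26 counts in Tcf7 +/+ and 0 in Tcf7 F/F:Vav1-Cre, at least 11.7-fold lower taking 3 counts as the group's floor. Mpp4 had 31 and 3 counts, a ratio of 14 (95% exact interval 4.36 to 71.5). The genes most like Dlg5 over the 6 Bcl11b libraries were Tldc2, Mthfsl and Mocs3 (root mean square difference 0.07, 0.09 and 0.09), of which Tldc2 rose in Tcf7 F/F:Vav1-Cre (1.77) and Mthfsl (0.55) and Mocs3 (-0.20) were not past the test.

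**Figure D3:**
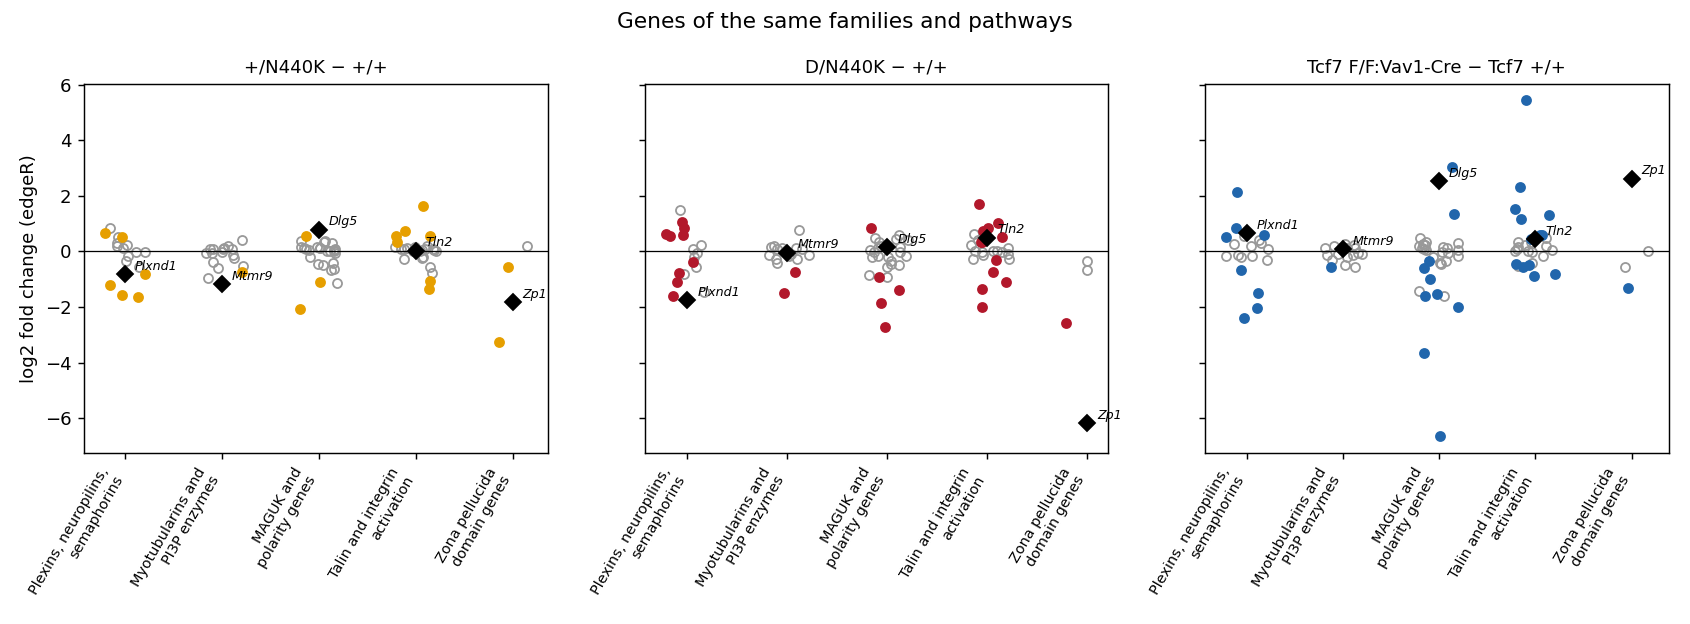
Log2 fold changes (edgeR) of genes in 5 lists for +/N440K and D/N440K against +/+ and Tcf7 F/F:Vav1-Cre against Tcf7 +/+, with filled circles past edgeR adjusted p under 0.05, open circles not past it and black diamonds the gene each list was built around. Called genes lie on both sides of 0 in the plexin and talin lists, and values of genes with under 4 reads in a group depend on the prior count.

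Whether the genes answered alike to the Bcl11b and Tcf7 genotypes was put to 1 edgeR fit of the 11 libraries together, as the effect of the N440K genotypes minus that of Tcf7 F/F:Vav1-Cre. Of the 5 genes, 4 were called and all 4 were lower for N440K, where 13.8% of 12249 tested genes were called and 6.97% called lower. The difference was -1.94 ± 0.136 for Plxnd1 (adjusted p = 2.065e-10), -6.64 ± 0.602 for Zp1 (adjusted p = 7.51e-09) and -2.06 ± 0.204 for Dlg5 (adjusted p = 4.583e-08). Plxnd1 and Zp1 fell in one table and rose in the other. Dlg5 was higher in both, and by more in the Tcf7 table. Its Bcl11b value joins 0.79 in +/N440K with 0.15 in D/N440K (95% interval -0.09 to 0.38). For Mtmr9 it was -0.69 ± 0.216 (edgeR adjusted p = 0.03335), a call lost with DESeq2 and when any 1 of 8 of the 11 libraries was left out (edgeR adjusted p 0.0538 to 0.2336 there). For Tln2 it was -0.18 ± 0.178 (95% interval -0.53 to 0.17, edgeR adjusted p = 0.5745). Age and the targeted gene differ together between the tables and cannot be told apart.

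**Figure D4:**
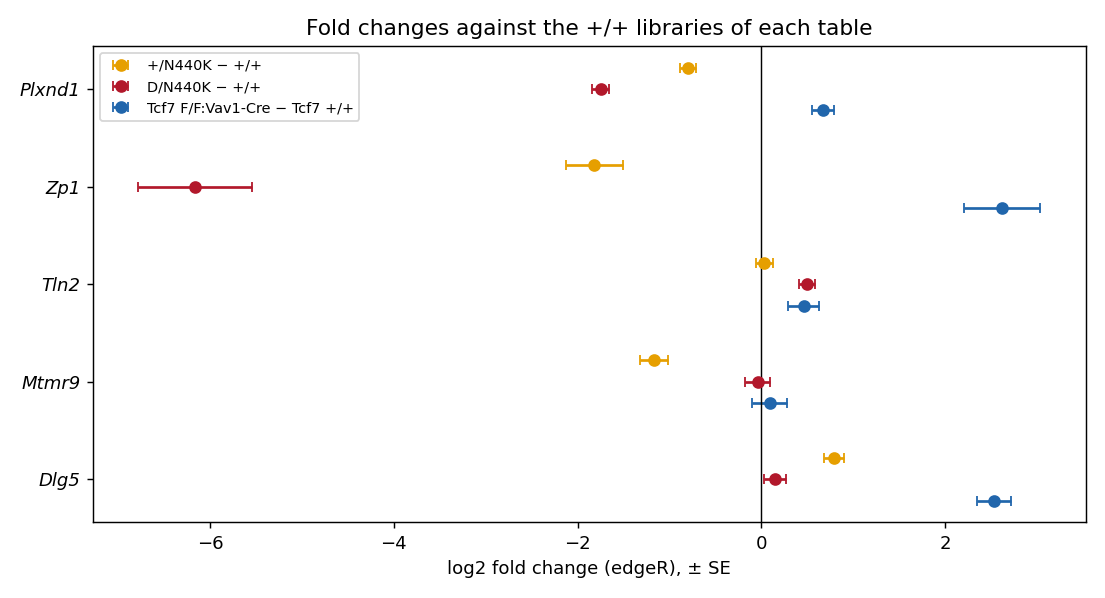
Log2 fold change (edgeR, ± SE) of each gene against the +/+ libraries of its own table, with both Bcl11b comparisons sharing the same 2 +/+ libraries. Plxnd1 and Zp1 lie below 0 in both Bcl11b genotypes and above 0 in Tcf7 F/F:Vav1-Cre, and Dlg5 is at 0.79, 0.15 and 2.53.

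Per kilobase of exon, the order of the 5 in Bcl11b +/+ was Plxnd1 at 87.8 ± 7.95 CPM per kb, Mtmr9 at 33.2 ± 4.31, Zp1 at 20.9 ± 1.11, Tln2 at 19.1 ± 1.6 and Dlg5 at 16.7 ± 0.22. The libraries of Zp1 and Tln2 overlapped on this scale. In D/N440K the order was Mtmr9 at 32.4 ± 0.448, Tln2 at 27.3 ± 2.54, Plxnd1 at 26 ± 1.09, Dlg5 at 18.4 ± 0.467 and Zp1 at 0.216 ± 0.306, and the libraries of Tln2 and Plxnd1 overlapped. Plxnd1 thus went from the first place to a level like that of Tln2. In Tcf7 +/+ the levels were 64 ± 6.86, 15.1 ± 2.35, 4.64 ± 0.696, 3.29 ± 0.609 and 2.28 ± 1.61 CPM per kb for Plxnd1, Mtmr9, Tln2, Dlg5 and Zp1, with overlap of Dlg5 and Zp1.

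Il17re, which encodes a chain of the IL-17C receptor, was among the 3 genes most like Plxnd1, with Gm44175 and Prrg4 (root mean square difference 0.12, 0.10 and 0.16). It stood at 104.3 and 96.31 CPM in Bcl11b +/+, at 55.49 and 48.36 in +/N440K and at 24.84 and 28.5 in D/N440K. Like Plxnd1 it rose in the Tcf7 table, from 102.6 and 95.26 to 234.5, 209.6 and 235.3 CPM (1.19, edgeR adjusted p = 8.736e-06). Gm44175, a long non-coding RNA, fell there (-2.17), and Prrg4 was not past the test (0.96, edgeR adjusted p = 0.07944).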

How the data were processed

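RNA of sorted CD24-negative, TCRβ-negative thymocytes was read in 11 libraries made by a modified RamDA-seq protocol with Tn5, per the labels' protocols. The count tables, deposited by the authors, hold whole-number counts per Ensembl gene without normalization. The tools listed are HTSeq 0.11.2, STAR 2.7.3a, fastp 0.20.0, Picard 2.21.1, SAMtools 1.9 and edgeR, with mm10 (GRCm38), per the submitters' processing notes. The annotation release and the strand of counting are not given in the sources used here.

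Groups came from the sample titles. Symbols and positions came from GENCODE M21, which holds 53620 of 53801 and 55144 of 55471 identifiers. Each table was filtered (filterByExpr, minimum count of 10), scaled by TMM and fitted by edgeR 4.0.16 (R 4.3.3) with a coefficient per group, leaving 3 residual degrees of freedom. Genes were called at Benjamini-Hochberg adjusted p under 0.05 over all tested genes, two-sided. The SE is the unshrunk fold change divided by the square root of F. Patterns were compared by centred log2 CPM (prior count 2) among genes whose log2 CPM averaged at least 3. The fits were tested on simulated data. Alternatives used other scalings and filters, DESeq2 1.42.0, limma-voom (limma 3.58.1), a replicate block, and each library left out. The genes and lists were chosen with earlier results of these data known. Named genes are the 5, up to 4 called genes per list and comparison by p, tested neighbours within 100 kb and the 3 closest patterns per gene. Tln1, Mtmr6, Mtmr7 and Blk, and values of a named gene in its other comparisons, were added after their values were seen. The authors' normalised tables were not used. Figures used matplotlib 3.10.9. The lowest total, 999381 counts, limits precision for genes such as Zp1. One gene that the naming rule picks is not reported here.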

Additional observations from a re-analysis of the deposited data

How the results depend on the processing

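For the 5 genes, the N440K mean against +/+, the Tcf7 comparison and their difference kept direction and side of the threshold under RLE and upper-quartile scaling, the stricter filter and limma-voom. DESeq2 called 357 genes in +/N440K, 528 in D/N440K, 619 in the N440K mean, 4 between the mutant genotypes and 1088 in the difference of effects, and lost Tln2 (0.27 for the N440K mean) and Mtmr9 (-0.71 for the difference of effects, adjusted p = 0.119). Without a filter 91 genes were called between the mutant genotypes and 1606 in the Tcf7 table, and Mtmr9 was lost in the difference of effects (-0.63). Leaving out 1 library gave 726 to 1121 calls in +/N440K, 924 to 1571 in D/N440K, 989 to 1637 in the N440K mean, 25 to 91 between the mutant genotypes, 1700 to 4612 in the Tcf7 table and 974 to 2989 in the difference of effects. The fewest came without +/+ replicate 1, except without Tcf7 F/F:Vav1-Cre replicate 3 in the Tcf7 table and D/N440K replicate 1 between the mutant genotypes, and the most in the Tcf7 table without Tcf7 +/+ replicate 1. In these fits Mtmr9 ran from -0.72 to -0.46 for the N440K mean and from -0.85 to -0.53 for the difference, and Tln2 from 0.19 to 0.36 for the N440K mean and from 0.31 to 0.62 in the Tcf7 table. A lone library was assumed to vary like the other groups. With a replicate block 37 genes were called between the mutant genotypes, Mtmr9 stood at -0.69 in the difference (edgeR adjusted p = 0.06999), and no other of these calls changed. The replicate numbers did not pair the libraries, with correlations of deviations of -0.048, -0.039 and 0.001 between Bcl11b groups and of -0.172 and 0.107 for Tcf7 numbers 1 and 2. Chosen after seeing the data, the Tcf7 fit with Y-linked reads as a term called 1112 genes. The libraries with Y-linked reads alone, 1 of Tcf7 F/F:Vav1-Cre against the +/+ pair, gave 0 edgeR calls and 1484 genes at an unadjusted p under 0.05, with Dlg5 at 2.66, Plxnd1 at 0.65 and Zp1 at 3.00, all past no threshold, and 0 calls in each of the 5 gene lists. The cause of these changes was not tested. Low counts limit Zp1.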

Other observations

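Genes beside Mtmr9 and Dlg5 moved in their own ways. Fam167a, 54.15 kb downstream of Mtmr9, fell from 45.01 and 33.21 CPM in Bcl11b +/+ to 4.896 and 5.922 in +/N440K (log2 fold change -2.82, edgeR adjusted p = 4.436e-07) and to 5.139 and 3.053 in D/N440K (-3.17, edgeR adjusted p = 9.736e-08), so that it did not return to the level of +/+ in D/N440K as Mtmr9 did. Xkr6, 62.52 kb upstream, stood at 20.46 and 34.04 CPM in +/+, at 10.61 and 9.87 in +/N440K and at 16.27 and 25.45 in D/N440K. It fell in +/N440K (-1.43, edgeR adjusted p = 0.005077) and was not past the test in D/N440K (-0.44, edgeR adjusted p = 0.4576). Blk, a kinase of B and γδ cells 102.6 kb from Mtmr9 and chosen after its values were seen, stood at 281.3 and 235.8, 25.3 and 28.62, and 11.99 and 7.125 CPM over the 3 genotypes.

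Gm31392, a long intergenic non-coding RNA 58.05 kb downstream of Dlg5, rose in all 3 comparisons. It went from 7.161 and 6.642 CPM in Bcl11b +/+ to 35.91 and 37.51 in +/N440K (2.39, edgeR adjusted p = 1.334e-06) and 45.39 and 49.87 in D/N440K (2.77, edgeR adjusted p = 1.52e-08). In the Tcf7 table it went from 6.762 and 12.96 to 35.58, 36.73 and 35.61 CPM (1.86, edgeR adjusted p = 0.0001649). Of these 3, D/N440K is the one in which Dlg5 stood near +/+. Beside Plxnd1, Ift122, of cilia, fell in +/N440K (-1.88, edgeR adjusted p = 0.01645) and D/N440K (-2.18, edgeR adjusted p = 0.006125), and Tmcc1 was not past the test in any comparison (-0.21, 0.06 and 0.14).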
